A study of Gallus gallus with 12 samples.

Results

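The genes described here are 50 of the 19820 genes of the deposited table (18241 of them numbered genes, the other 1579 newly annotated loci). They were high in the magnum of laying-age hens and lower in the uterus of that age. Levels were already high in 1 of the 3 magnum libraries at 120 days. They came from Lohmann layers, a commercial egg-laying strain of chicken (Gallus gallus). The groups were magnum at 300 days, magnum at 120 days, uterus at 300 days and uterus at 120 days, with 3 libraries each. The series title places these ages during and before lay, and the labels name no treatment, genotype or housing, nor whether a library is 1 hen. The stated purpose was to compare the segments in function and in defense of the oviduct and egg.

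A gene was a member if its mean in the 3 magnum libraries at 300 days reached 500 scaled counts. The lowest of those 3 libraries also had to be at least 4 times (value + 1) the highest of magnum replicates 2 and 3 at 120 days, and likewise of the 3 uterus libraries at 300 days. Finally, replicate 1 of the magnum at 120 days had to reach 0.3 of the 300-day magnum mean. Levels in those 9 libraries chose the members, so comparisons that involve the magnum are given as a description, with no test. The uterus at 120 days was the one group the rule did not use, and the age change in the uterus was the one comparison tested. That comparison is not free of the rule either, since the 3 uterus libraries at 300 days were held to a ceiling.

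The magnum is the segment of the hen's oviduct whose gland cells make egg white. Its tubular glands grow and differentiate under sex steroids as a pullet matures, and in lay they secrete large amounts of ovalbumin, ovotransferrin, ovomucoid and lysozyme. The uterus, or shell gland, receives the egg later and lays down its shell. The deposited table gives numbered identifiers without gene names, and 0 of 19820 matched the chicken reference table, so no member can be given a name, a position or a role. Markers of magnum glands, shell gland or ciliated cells could not be looked up for the same reason, and the tissue labels were not checked against them. Members are called by their rank, member 1 having the highest mean FPKM (the deposited level per kilobase of gene) in the magnum at 300 days.

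The deposited whole numbers are scaled counts: they had been brought to a common level, with size factors of 0.977 to 1.02 in the 12 libraries although the column totals ran from 14499548 to 77432154. From the regular gaps and doublings among low values, 1 read was estimated at 1.95 to 2.37 scaled counts for the 300-day magnum, 1.17 in magnum replicate 1 at 120 days and 0.622 to 0.876 in the other 8 libraries. The reads assigned to genes came to an estimated 18600000 to 32600000 per library. In those 8 libraries a single read would be listed as 0. Replicate 1 stood apart from the other magnum libraries at 120 days, with a total of 25071610 scaled counts beside 14499548 in replicate 2 and 14557061 in replicate 3. The 50 members made up 6.99%, 8.05% and 11.2% of the magnum libraries at 300 days. At 120 days they made up 8.24%, 0.521% and 0.946% of magnum replicates 1, 2 and 3. In the uterus their share was 0.177% to 0.184% at 300 days and 0.143% to 0.211% at 120 days.

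Among the members, 5 stood far above the rest in the magnum at 300 days. Member 1, gene13123, had 54250.2, 68719.2 and 60239.5 FPKM at 300 days, against 22330.6, 785 and 1597 FPKM at 120 days. All 3 older libraries were above the younger ones, and replicate 1 at 120 days was over 10 times replicates 2 and 3. In the uterus it averaged 83.6 ± 22.2 FPKM at 300 days and 105 ± 113 FPKM at 120 days (SD, n = 3 each). This gene alone made up 71.1%, 63.1% and 73.9% of the members' total in the 300-day magnum, and 62.7%, 71.0% and 72.9% at 120 days.

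Member 2, gene17108, had 14775.1, 48738.9 and 13177.6 FPKM in the magnum at 300 days, against 9053 FPKM in replicate 1, 82.2 in replicate 2 and 266 in replicate 3 at 120 days. Replicate 2 at 300 days was more than 3 times its fellows, and the ages did not overlap. Members 3, 4 and 5 averaged 10216 ± 1391, 9843 ± 2293 and 8722 ± 6594 FPKM in the magnum at 300 days (SD, n = 3 each). Their 300-day ranges overlapped, so their order among themselves was within the spread of the libraries.

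In scaled counts, these 3 genes showed a wide gap between replicate 1 and the other magnum libraries at 120 days. Member 3 had 21671, 25329 and 21654 in the magnum at 300 days, against 11615, 10 and 34 at 120 days. Member 4 had 518406, 703108 and 403532 at 300 days, against 204569, 202 and 892 at 120 days. Member 5 had 90882, 294083 and 94271 at 300 days, against 60447, 26 and 85 at 120 days. In each of the 3 genes, replicate 1 at 120 days lay below the 300-day libraries and far above the other libraries of its own group.

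The other 45 members averaged 5.56 to 1050 FPKM in the magnum at 300 days. Of the 49 neighbouring pairs in the order of levels, 43 had overlapping 300-day ranges. Among the first 6 ranks, the pairs 1 and 2, 2 and 3, and 5 and 6 did not overlap. By level, 2 members were among the 10 highest genes of the magnum at 300 days and 7 among the 100 highest, and 3 were among the 10 highest in replicate 1 at 120 days.

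**Figure D1:**
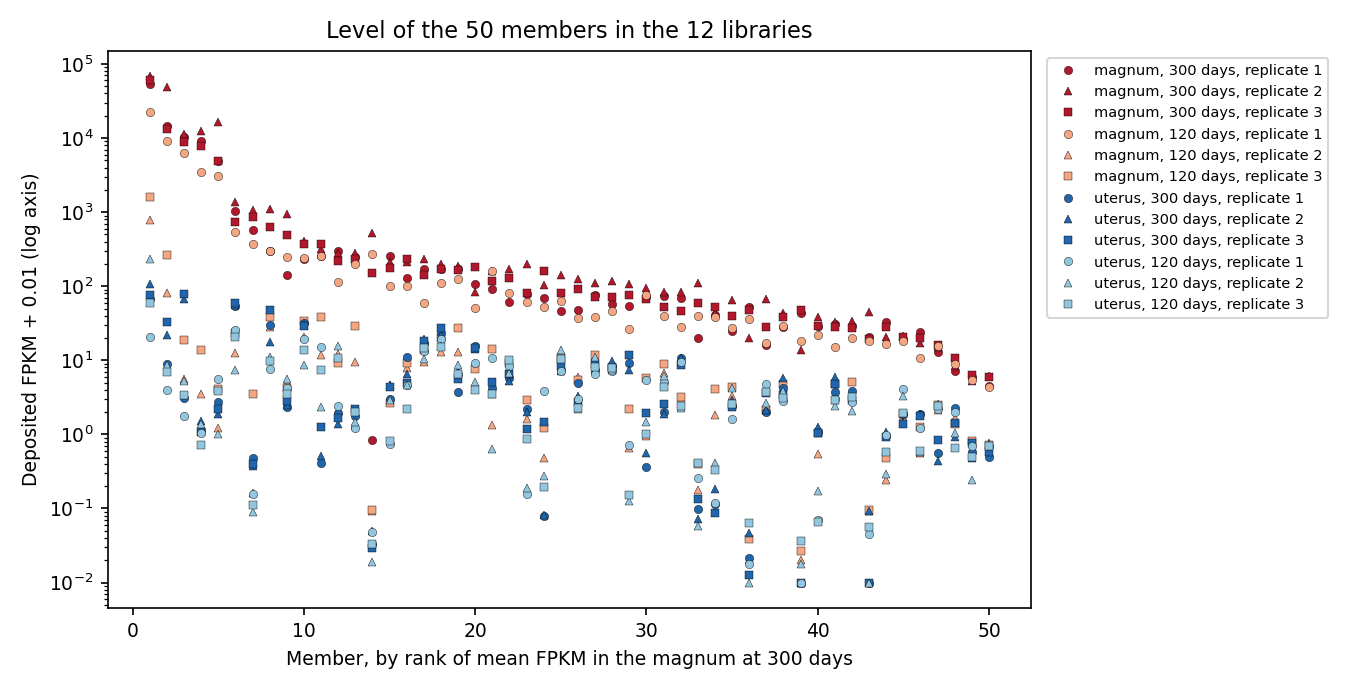
Deposited FPKM + 0.01 on a log axis for each of the 50 members in each of the 12 libraries, with members ordered by their mean FPKM in the magnum at 300 days and groups told apart by colour. The rule set a lower limit on replicate 1 of the magnum at 120 days relative to the 300-day magnum mean. Its closeness to the 300-day libraries is therefore fixed by selection. Member 14 had 0.837, 522 and 150 FPKM in the 300-day magnum libraries, against 274 FPKM in replicate 1 at 120 days. In the magnum at 300 days the first 5 members stand above the other 45.

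The level in replicate 1 of the magnum at 120 days was taken as a fraction of the 300-day mean, which the rule required to be 0.3 or more. On scaled counts the fraction had a median of 0.579 and ran from 0.32 to 1.52. Replicate 1 lay below all 3 libraries of 300 days for 31 members, within their range for 16 and above all of them for 3. The 5 most abundant members had fractions of 0.334 to 0.508, in the lower part of the range. At the other end stood member 21, with 18187, 31275 and 21178 scaled counts at 300 days against 35846, 280 and 3549 at 120 days. Replicate 1 at 120 days was above every 300-day library for that gene, whereas replicate 2 was far below.

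These fractions depend on the scale. In the magnum at 300 days a few very abundant genes take most of each library, and dividing each library by its own total lowers the 300-day values relative to replicate 1. On that scale the fraction had a median of 1.36 and ran from 0.742 to 3.75, replicate 1 lay above all 3 libraries of 300 days for 29 members, within them for 19 and below them for 2. The 5 most abundant members then had fractions of 0.846 to 1.2. The rule itself, applied to values divided by library totals, chose 22 genes, of which 15 were among the 50. In a bulk tissue sample, fewer cells of a type and less RNA per cell cannot be told apart, and this holds for all levels given here.

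**Figure D2:**
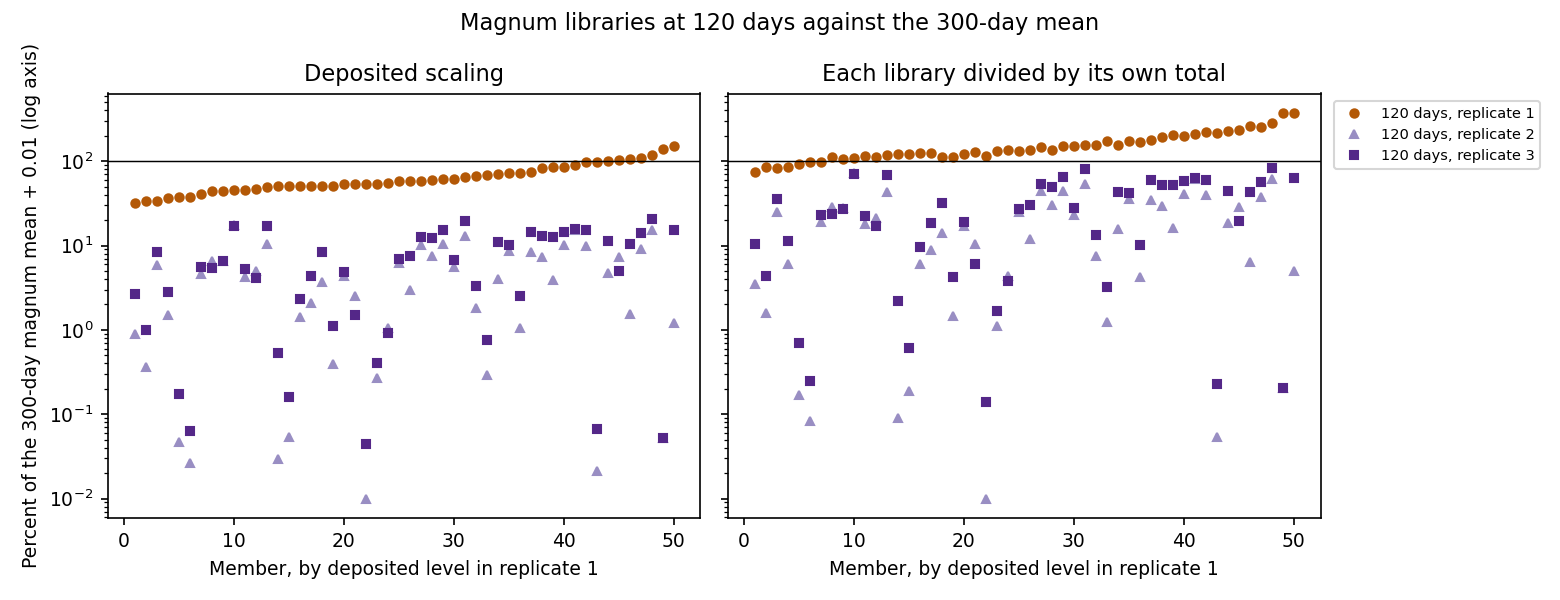
Scaled counts of the 50 members in the 3 magnum libraries at 120 days as a percentage of the 300-day magnum mean (+ 0.01, log axis), in the deposited scaling and after dividing each library by its own total; the line marks 100% and members are ordered by their deposited level in replicate 1. In the deposited scaling, replicate 1 ran from 32.0% to 152% and replicates 2 and 3 stayed at or below 20.4%.

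Just inside the limit on this fraction were members 29 and 2, at 0.32 and 0.334, and just outside were 2 genes at 0.282 and 0.281. The limit alone kept out 45 genes that met every other condition. The smallest gaps to magnum replicates 2 and 3 were 4.40 and 4.46 inside the limit of 4 and 3.97 and 3.82 outside it. For the gap to the uterus at 300 days they were 4.03 and 4.17 inside and 3.81 and 3.74 outside. The lowest 300-day means inside the limit of 500 were 546 and 677 scaled counts, and 402 and 334 lay outside.

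The 45 genes left out by the fraction alone were the set most like the members. Replicate 1 was a median of 9.02 times the higher of replicates 2 and 3 (value + 1) among the members, against 1.98 times among those 45 genes, a difference that follows from the rule. Together the 45 genes held 64.7%, 68.1% and 50.9% of the magnum libraries at 300 days. At 120 days their shares were 30.7% of replicate 1, 0.252% of replicate 2 and 0.704% of replicate 3. In replicate 1 the members thus held a share of the library within their 300-day range of 6.99% to 11.2%, and the 45 genes a share below theirs. The limit on the fraction split the 2 sets, so nothing is read from this contrast. In scaled counts the members summed to 2066388 in replicate 1, below the 4350875, 6235245 and 5040891 of the 300-day magnum libraries. Gene length, which the rule did not use, had a median of 4022 bases in the members, 3147 bases in the 45 genes and 4190 bases in the 6716 numbered genes with a 300-day magnum mean of at least 500.

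Replicates 2 and 3 of the magnum at 120 days also differed from each other in the members. The rule capped both but set no order between them. Replicate 3 was higher than replicate 2 for 42 members, lower for 7 and equal for 1, and the median ratio was 1.62 (value + 1). The 45 genes left out by the fraction alone leaned the same way, with replicate 3 higher for 33, lower for 11 and equal for 1 and a median ratio of 1.23. Among the 6716 numbered genes above, replicate 3 was higher for 56.3% and the median ratio was 1.04. The widest gap was in member 7, whose 300-day libraries held 74091, 139993 and 106213 scaled counts, against 53957, 21 and 564 at 120 days. Between these 2 libraries there is no replicate check. In the uterus at 120 days, replicate 3 was higher than replicate 2 for 27 of the 50 members, 54.0%, where 51.3% of all genes tested met this.

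In the deposited scaling, the levels left in magnum replicates 2 and 3 at 120 days covered a wide range. Division by library totals would raise them against the 300-day mean, since the totals were 14499548 and 14557061 beside 44995822 to 77432154. The classes below were not counted on that scale. In replicate 2, 12 members stood below 1% of their 300-day magnum mean, 30 from 1% to below 10%, and 8 at 10% or more. In replicate 3 the same classes held 11, 20 and 19 members. Member 39 was at the bottom of this range, with 3522, 1075 and 4060 scaled counts in the magnum at 300 days, against 1538, 0 and 1 at 120 days. It was also listed at 0 in the 3 uterus libraries at 300 days and at 0, 0 and 1 at 120 days.

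Within the magnum at 300 days the ratio of the highest to the lowest library had a median of 1.69 in the members, against 1.49 in the 6716 numbered genes. The libraries differed at least 2-fold for 16 members, 32.0%, where 15.3% of the 6716 genes and 22 of the 45 genes left out by the fraction did so. Member 14 was the exception in size, with 54, 33269 and 9199 scaled counts in the 300-day libraries, against 19886, 6 and 6 at 120 days. Replicate 1 at 300 days was far below the other 2 libraries of that age, though above replicates 2 and 3 of 120 days, and the 300-day mean rested on those 2 libraries. Replicate 2 was the highest of the 300-day magnum libraries for 36 members in the deposited scaling, where it was so for 38.9% of the 6716 genes. After division by library totals it was the highest for 9 members and replicate 3 for 35. The share of the 6716 genes was not taken on that scale.

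Across ages in the magnum, 31 of the 50 members had all 3 libraries at 300 days above the 3 at 120 days, where 18.7% of all genes tested did so. The members were chosen on this contrast, so nothing is read from that count. Division by library totals moved the median log2 change of all genes in the magnum to -1.79, from -0.03 in the deposited scaling.

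In the uterus the members were low beside the 300-day magnum at both ages, which the rule fixed for 300 days. They were not all low in themselves. Their uterus means had a median of 211.5 scaled counts at 300 days and 218.5 at 120 days, and reached 5631 and 7134. At 300 days 18 members stood below 1% of their 300-day magnum mean, 18 from 1% to below 10%, and 14 at 10% or more. At 120 days the classes held 18, 26 and 6 members. These classes too are in the deposited scaling. Division by library totals would raise the percentages, and the classes were not counted on that scale. Of the 50, 15 were below 1% at both ages, among them members 1 to 5. The highest uterus level belonged to member 1, with 4589, 7278 and 5025 scaled counts at 300 days, against 1425, 16258 and 3718 at 120 days. The ages overlapped for that gene, and its log2 change of 0.32 ± 0.78 (SE) did not pass in limma (adjusted p = 0.812).

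The age change in the uterus was tested by limma on log2(scaled count + 1) of the 6 uterus libraries, with Benjamini-Hochberg adjustment over all genes. The test was not independent of the rule, which put a ceiling on the 300-day uterus libraries and left the 120-day ones free. Of the 50 members, 8 were higher at 300 days than at 120 days and 3 were lower. Among the 14870 genes tested, 5.68% were higher and 6.41% lower, but those genes were not held to the ceiling, so the members' counts are not read against these shares. Of the 45 genes left out by the fraction alone, which met the same ceiling, 44 were tested by limma, with 5 higher and 0 lower, and 13 higher and 4 lower at an unadjusted p below 0.05. The lowest 300-day magnum library was 4.74 to 950 times the highest 300-day uterus library (value + 1) in the 8 members that were higher, and 14.1 to 189 times in the 3 that were lower, where the ceiling was 4. The 300-day libraries lay wholly above the 120-day ones for 16 members and wholly below for 8, where 20.4% and 18.9% of all genes did so, and the ages overlapped for 26. The 48 members listed above 0 in some library of each age had a median log2 change of 0.38, against 0.03 over all genes. Of the 50, 45 reached 10 scaled counts in at least 3 of the 6 uterus libraries, and the others entered the test through their magnum levels. With this limit set on the uterus libraries, 8 members were higher and 3 lower. The median of the members tested ran from 0.16 with FPKM + 1 to 0.53 without replicate 3 of 120 days. Genes at large were not held to the ceiling, so nothing is read from the gap.

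The members that rose in the uterus were members 29, 40, 7, 6, 8, 20, 46 and 10, in order of the size of the rise. Member 29 had 259, 222 and 319 scaled counts at 300 days, against 24, 3 and 2 at 120 days, a log2 change of 5.31 ± 0.79 (SE, adjusted p = 0.0124, limma). Member 40 had 79, 86 and 78 at 300 days, against 6, 11 and 3 at 120 days, a log2 change of 3.56 ± 0.51 (SE, adjusted p = 0.0116, limma). The ages were wide apart in both genes, which were among the lower members in the uterus at 120 days.

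The other 6 rises were smaller. Member 20 had the highest uterus level of them, with 4066, 3900 and 4119 scaled counts at 300 days, against 2189, 1201 and 1237 at 120 days, and a log2 change of 1.44 ± 0.24 (SE, adjusted p = 0.0168, limma). Member 10 had 3382, 3274 and 3206 at 300 days, against 2067, 879 and 1691 at 120 days, and the smallest of the 8 rises, 1.18 ± 0.30 (SE, adjusted p = 0.0486, limma). Member 7 was the lowest in level, with 77, 59 and 65 at 300 days, against 21, 10 and 16 at 120 days. In all 8 the 300-day libraries lay above the 120-day ones. Member 3, with 6, 125 and 139 at 300 days against 3, 11 and 4 at 120 days, had a log2 change of 3.00 ± 1.18 and did not pass (adjusted p = 0.133, limma).

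The members that fell in the uterus were member 11, member 47 (gene2638) and member 31 (gene5127). Member 11 had 16, 17 and 45 scaled counts at 300 days, against 618, 110 and 246 at 120 days, a log2 change of -3.41 ± 0.69 (SE, adjusted p = 0.0275, limma). Gene2638 had 73, 61 and 120 at 300 days, against 279, 314 and 382 at 120 days, a log2 change of -1.98 ± 0.33 (SE, adjusted p = 0.0166, limma). Gene5127 had 194, 188 and 259 at 300 days, against 474, 546 and 454 at 120 days, a log2 change of -1.21 ± 0.22 (SE, adjusted p = 0.0205, limma). None of the 3 overlapped between ages. The rule chose them for being high in the 300-day magnum and low beside it in the 300-day uterus. That uterus group is part of this test, so the falls are not free of the selection.

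**Figure D3:**
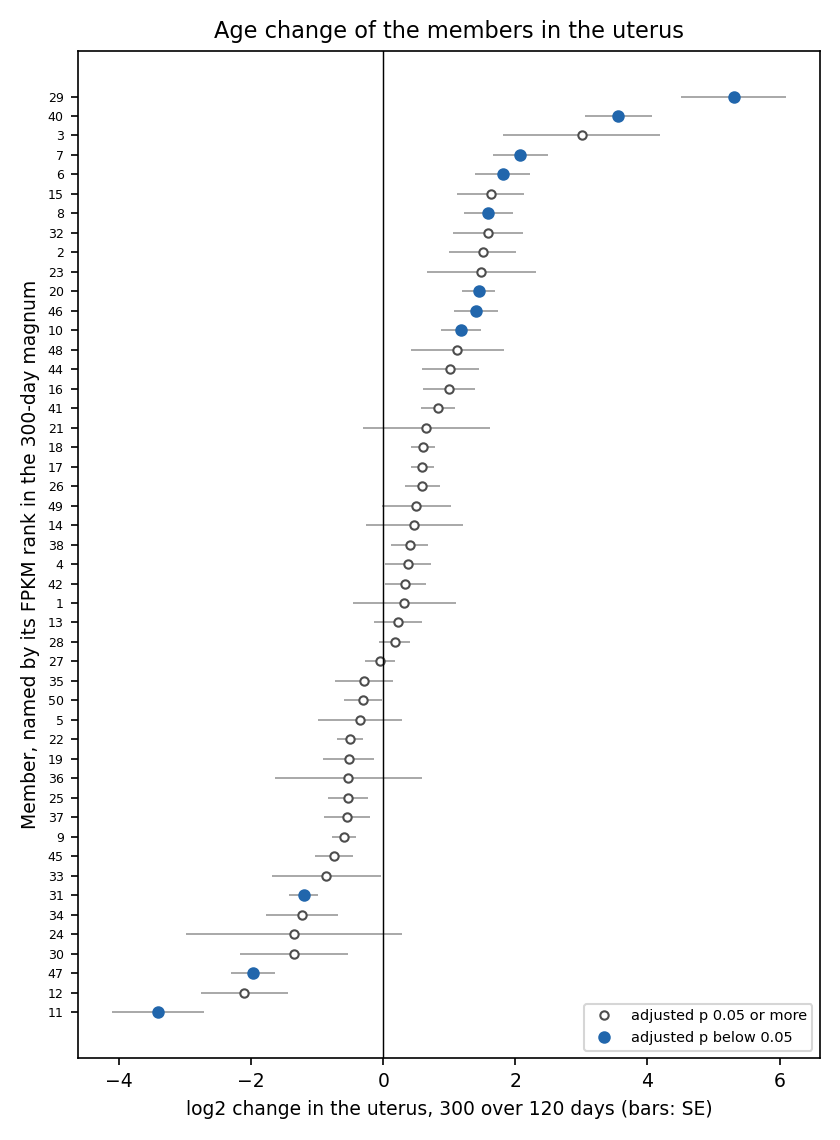
Log2 change in the uterus, 300 over 120 days, with its SE, for the 48 members listed above 0 in some library of each age, by limma on log2(scaled count + 1). Filled points passed an adjusted p of 0.05: 8 to the right of 0, up to 5.31, and 3 to the left, down to -3.41.

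The counts came from 4 residual degrees of freedom and moved with the libraries fitted, over all genes as well as in the members. Without replicate 1, 2 or 3 of 300 days, 1, 0 and 0 members were higher and 0, 0 and 2 lower, and over all genes 83, 60 and 143 were higher and 172, 71 and 208 lower, instead of 844 and 953. Of the 11 members called in the main fit, 0, 0 and 2 kept their call there. The 1 member higher without replicate 1 was thus not among the 8 of the main fit. In these fits the 2 largest rises stayed near their values. Member 29 had 5.32, 5.43 and 5.17 (adjusted p = 0.0554, 0.0577 and 0.0534, limma). Member 40 had 3.58, 3.52 and 3.59 (adjusted p = 0.0544, 0.0620 and 0.0507, limma). Over all 15 alternatives, the log2 change ran from 2.99 to 6.26 in member 29 and from 0.95 to 3.95 in member 40. Member 7, at 2.08 in the main fit, ran from 0.34 to 2.31 and kept its call in 9 of the 15. The lowest values of members 29, 40 and 7 came with FPKM + 1. The 1 added there exceeded their uterus means at 120 days, of 0.322, 0.0919 and 0.109 FPKM. Member 8, at 1.59 in the main fit, ran from 1.27 to 1.96 and kept its call in 8. Without replicate 1, 2 or 3 of 120 days, 10, 9 and 1 members were higher and 5, 3 and 0 lower, and over all genes 1425, 662 and 137 were higher and 1563, 841 and 145 lower. Of the 11 main calls, 10, 11 and 1 were kept in these 120-day fits. A fit of all 12 libraries gave 2 members higher and 2 lower, and over all genes 973 higher and 1073 lower. That fit takes in the wide spread of the members in the magnum at 120 days, whose part was not tested. After division by library totals 5 were higher and 4 lower, and over all genes 467 higher and 1377 lower, with a median log2 change of all genes of -0.14. At an unadjusted p below 0.05, 17 members were higher and 7 lower, where 15.7% and 16.0% of all genes were.

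At 120 days the members are set beside the uterus as a description, since the rule used all 3 magnum libraries. Replicate 1 of the magnum was above all 3 uterus libraries for all 50 members, so the count of members whose libraries did not overlap turned on replicates 2 and 3. All 3 magnum libraries lay above the 3 uterus libraries for 17 members, where 7.49% of all genes did so, and nothing about the members is read from the gap between these shares. Among the 45 genes left out by the fraction alone, which the rule held low in the same libraries, the same was found for 16. The 17 became 33 without replicate 2 of the magnum and 19 after division by library totals. Leaving out a library can only raise such a count. The share of all genes was taken only beside the 17, so nothing is read from the 33 or the 19. The opposite, replicates 2 and 3 both below every uterus library, was found for 1 member and for 1 of the 45 genes.

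Member 2 shows such a gap, with 85240, 899 and 2511 scaled counts in the magnum at 120 days, against 45, 96 and 64 in the uterus at 120 days. Member 1 had 1296290, 53649 and 100346 in the magnum, against 1425, 16258 and 3718 in the uterus. For both genes even the lowest magnum library was above the highest uterus library. Member 5 did not separate beyond replicate 1, with 60447, 26 and 85 in the magnum against 120, 22 and 86 in the uterus. Without replicate 1 of the magnum, the median log2 difference of the members was 0.59, against 0.02 over all genes, with 43 of 50 above 0. The rule had capped the magnum libraries that remained, and the genes at large were not held to it. The share of all genes above 0 was not taken, nor that of the genes left out by the fraction alone. Nothing about the members is therefore read from the 43 or from the gap between the medians.

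**Figure D4:**
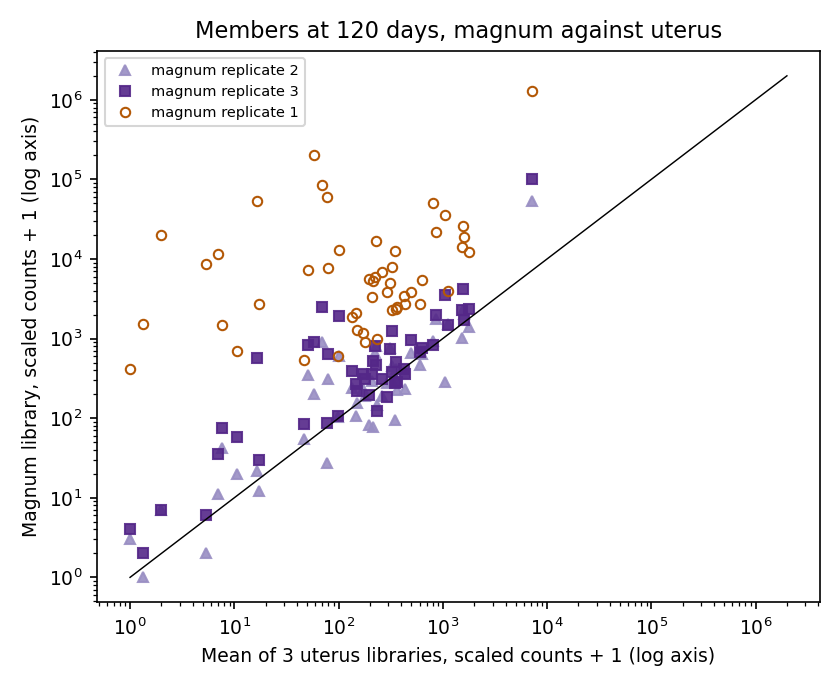
Each member's scaled count + 1 in the 3 magnum libraries at 120 days (log axis) against its mean + 1 in the 3 uterus libraries at 120 days (log axis), with the line of equality. Replicate 1 lies above the line for all 50 members, while replicates 2 and 3 scatter around and above it.

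Replicate 1 of the uterus at 120 days, which the rule did not use, was also high for some members. It was at least 2 times each other uterus library of that age (value + 1) for 7 of the 50, 14.0%, where 4.39% of all genes tested met this. For replicates 2 and 3 the same was found for 3 and 2 members, where 5.82% and 2.04% of all genes met it. This count was not taken for the 45 genes left out by the fraction alone, so it is not read as particular to the members. Replicate 1 was the highest uterus library at 120 days for 23 members and for 17 of those 45 genes. Among the 6716 numbered genes it was so for 27.3%. Member 21 had 2137, 111 and 917 scaled counts in the uterus at 120 days, and member 30 had 428, 110 and 101. Both belong to the 6 members in which magnum replicate 1 at 120 days exceeded the 300-day mean, at 1.52 and 1.07 times. In all, 3 of the 7 belong to those 6. The members were chosen high in magnum replicate 1, and across genes the replicate 1 libraries of both segments at 120 days deviated together (correlation of 0.361). So did those of replicates 2 and 3 (correlations of 0.591 and 0.390). Whether same-numbered libraries shared a hen, a day or material is not in the labels, and its part in these values was not tested.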

How the data were processed

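An RNAsimple kit and a Smarter mRNA-seq kit served for extraction and library construction, per the labels' protocols. The submitters' processing notes name Cufflinks 2.0.2, TopHat2 2.0.8, FastQC 0.11.6, Trimmomatic 0.32 and GATK 3.8, without role or order. Genome build, annotation and counting method: not given in the sources used here. How reads of similar or overlapping genes were divided could therefore not be judged. The authors deposited whole numbers per gene, treated here as scores (scaled, truncated counts), and FPKM values for the same genes on nearly the same common scale. Whole reads could not be recovered in 8 libraries, so no count model was used.

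The members and lists were chosen with earlier results of these data known. Genes with at least 10 scaled counts in at least 3 of the 12 libraries (14883, all 50 members included) were tested, except those with the same value in all 6 libraries of a comparison. The age change in the uterus was tested two-sided, with R 4.3.3 and limma 3.58.1, on log2(scaled count + 1) with a mean-dependent prior and Benjamini-Hochberg adjustment over all genes. Planned limma fits of the magnum age change and of magnum over uterus at 120 days rest on libraries that chose the members, and their calls are not reported. Fold changes on this scale understate the change of low genes. Nothing says that the 3 libraries of a group were separate hens, so p-values measure only the spread between libraries, which may be technical. Same-numbered libraries deviated together between magnum and uterus at 120 days (correlations across genes of 0.361, 0.591 and 0.390), with no source for a pairing in the labels. No 2 libraries were identical. Identifiers printed are the 2 members highest in FPKM and, of those lower in the uterus, the 2 with the highest 120-day level. Other members are given by rank, some chosen after their values were seen. The egg-white, shell-gland and ciliated-cell marker lists matched 0 identifiers. Alternatives were another pseudocount, other filters and scalings, the FPKM values, all libraries in 1 fit, a replicate block, and leaving out each library. Python 3.11.15, pandas 2.3.3 and matplotlib 3.10.9 were used for summaries and plots.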

Additional observations from a re-analysis of the deposited data

Results flagged for a closer look

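In 3 members every magnum library at 300 days lay above the 120-day ones while every uterus library at 300 days lay below the 120-day ones. Over all genes tested, 18.7% met the first condition and 18.9% the second. The share of all genes that met both was not counted, so nothing about the members is read from the 3. The difference between the segments was not tested, because the rule fixed the rise in the magnum. The log2 changes in the uterus were -3.41 for member 11, -2.11 for member 12 and -1.21 for member 31 (gene5127), against 2.74, 3.31 and 2.18 in the magnum. Member 12 had 325, 234 and 297 scaled counts in the uterus at 300 days, against 377, 2372 and 2031 at 120 days, and did not pass there (adjusted p = 0.0769, limma).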

How the results depend on the processing

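The number of genes chosen by the rule was 165 with 2-fold gaps, 23 with 8-fold gaps and 22 with library totals, against 50, and 55 to 71 when a 300-day magnum library was left out. For the uterus age change, members called higher were 5 with library totals, 2 with all 12 libraries and 3 with a replicate block, and 0 to 10 when a library was left out. Members called lower were 1 with the replicate block and 0 to 5 when a library was left out. Over all genes, 467 were higher with library totals, 973 with all 12 libraries and 329 with the replicate block, which gave 409 lower. Leaving out a library gave 60 to 1425 higher and 71 to 1563 lower. Same-numbered uterus libraries of the 2 ages did not deviate together (correlations of -0.0187, -0.0812 and -0.0122), so the block pairs only numbers. Calls under alternatives to the limma fits of the other 2 comparisons are not given, since the rule used their libraries. Of those alternatives only median log2 changes or differences are given. At 120 days, members with magnum libraries wholly above those of the uterus were 17 to 33 when a library was left out. Leaving out a library can only raise that count, and the share of all genes was not taken there. The cause of these changes was not tested.

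The uterus log2 change was repeated 195 times for 13 members, the 11 that passed and the 2 most abundant. In 131 repeats direction and side of the threshold were kept, which counts the 2 most abundant staying uncalled. In 63 the direction was kept but the call was lost, 42 of them when a library was left out. Each of the 11 kept its call in 6 to 12 of its 15 repeats. Member 1, gene13123, not called, had a log2 change of 0.32, of -0.50 without uterus replicate 1 at 120 days and of 1.26 without replicate 2. Scaled counts carry no interval for counting error, and a level near that of 1 read is not read as expression.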
